A study of Homo sapiens with 36 samples.

Results

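EA.hy926 is a human line made by fusing umbilical vein endothelial cells with A549 lung carcinoma cells. The line was kept in culture for 6 or 12 weeks without perfluorooctanoic acid (PFOA), and its messenger RNA was sequenced. The 3 vehicle libraries at 12 weeks are compared here with the 3 vehicle libraries at 6 weeks. These 6 libraries, out of 36 in a PFOA study, were chosen by their labels alone. Of 18048 genes with values, the 12345 with a mean of at least 10 normalised reads over the 6 libraries were tested. Both groups are labelled wild type and received 0.05% DMSO, in a serum-containing medium with hypoxanthine, aminopterin and thymidine. Flasks that received 1, 10 or 100 nM PFOA for the same times, with 3 libraries per dose and time, form a separate set of 18 libraries in which the same time difference was measured. Cells were collected while being passaged. The labels call the libraries biological replicates and do not say whether flasks with the same number are linked. Culture time cannot be told apart from anything else that differed between both collections, and this holds for the dosed flasks as well.

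Values are normalised read counts, that is, reads over the size factor of their library, so they compare libraries for one gene and not one gene with another. Differences are 12 weeks minus 6 weeks on the log2(value + 1) scale, given with their standard error (SE). A gene passed at a Benjamini-Hochberg adjusted p under 0.05 over all 12345 genes. The 6-library test is limma on the vehicle libraries, and the 24-library test is limma on vehicle and dosed libraries of both times, which leaves 16 residual degrees of freedom for the spread in place of 4. Adjusted p-values below are limma's.

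Each of the 6 libraries held between 17815292 and 19404971 reads, over 14195 to 14786 genes with a read. On the first principal component, with 62.4% of the variance, replicate 1 at 6 weeks (-74.3) and replicate 2 at 12 weeks (-75.9) stood apart from the other 4 libraries, which lay between 15.7 and 62.2. The second component, with 23.6%, separated the times, at -38.7 to -29.4 for 6 weeks and 27.4 to 43.3 for 12 weeks. The deviation of those 2 libraries from their groups correlated with transcript GC content across 11907 genes (Pearson r 0.79, Spearman rho 0.80, a description over genes, which are not independent). Their size factors, 0.619 and 0.540, were the lowest of the 6. Results are therefore also given without both. Pairs of libraries of a group differed far beyond counting noise, with a chi-square per degree of freedom of 56.0 or more, so none was the same library read again. Separate preparations from 1 flask could differ as much, and this check would not recognise them.

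**Figure D1:**
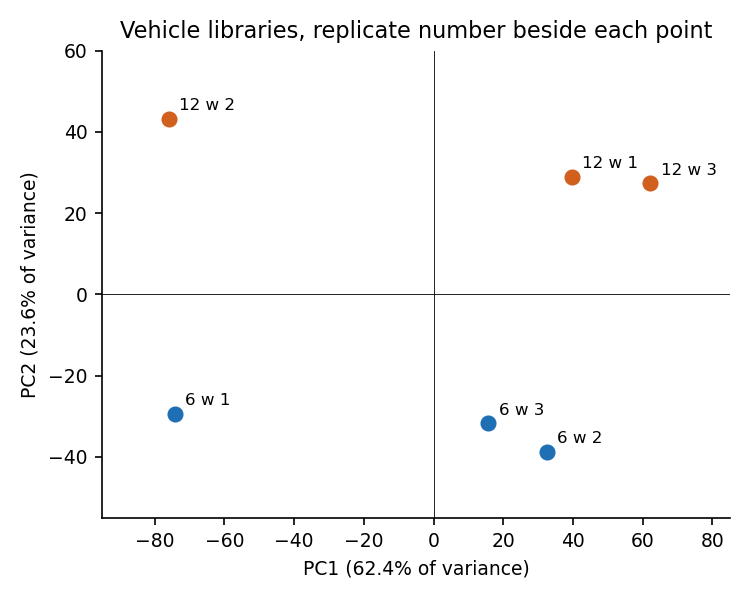
Principal components of the 6 vehicle libraries (log2 values), with 6 weeks in blue and 12 weeks in orange. The vertical axis separates the times, and replicate 1 at 6 weeks and replicate 2 at 12 weeks lie far to the left of the others.

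The endothelial label was checked against 14 markers, of which 12 reached a mean of 10. PECAM1, a junction protein of endothelial cells, stood at 1783, 1381 and 1905 at 6 weeks and 1650.2, 2024 and 1787 at 12 weeks. CLDN5 was at 0 in all 6 libraries and KDR, the main VEGF receptor, at 0 to 2.23. The 14 endothelial markers summed to 46658 to 106847 at 6 weeks and 39926 to 105225 at 12 weeks. Of 12 epithelial markers 8 reached a mean of 10, and the 12 summed to 74780 to 143240 and 39586 to 117082. The keratins KRT7, KRT8 and KRT18 stood at 17600 to 55911, 5789 to 38794 and 15862 to 51304 over the 6 libraries. CDH1 was at 0 in all 6. Of 7 leukocyte markers MS4A1 had no value and PTPRC was at 0. Those with values summed to 40.4 to 64.7 at 6 weeks and 32.3 to 51.9 at 12 weeks. CD68 and ITGAX, leukocyte markers outside these 7, stood far higher, at 1594 to 7603 and 466 to 1034 over the 6 libraries, with overlapping groups. Of 8 fibroblast markers DPT had no value. The summed level of the rest was 1111 to 2158 and 524 to 1367, with 1 marker, THY1, at a mean of 10 or more. Smooth muscle markers summed to 1180 to 1848 and 2054 to 2815, with ACTA2, described below, and RGS5 the 2 of these markers at a mean of 10 or more. RGS5 overlapped between times, at 677, 1493 and 1136 at 6 weeks and 1748, 602 and 1465 at 12 weeks. The part of these marker levels in the results was not tested. In bulk RNA, fewer cells in a state and less RNA per cell cannot be told apart.

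As background, genes for DNA replication are switched on ahead of S phase by E2F transcription factors. Genes for mitosis are switched on later, largely through a short promoter element called CHR, and are kept off in cells that do not divide. ATF4 is the transcription factor of the integrated stress response, which raises genes for amino acid synthesis and transport. SREBP-2, encoded by SREBF2, raises the enzymes of cholesterol synthesis when cell sterols are low. Genes of these 4 groups, and of others that a culture of endothelial cells may use, are described list by list.

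Promoter sequence upstream of the start site is shown for members of 3 of these groups, since the sequences carry the elements by which the groups are known. They are RefSeq sequences of build GRCh38.p14, 5′ to 3′ on the strand of the gene, and end at the base before the annotated start. Capitals mark the CHR letters TTTGAA in PLK1 and MKI67, the E2F letters TTTGGCGC in MCM6 and TTTCCCGC in PCNA (on the opposite strand, read here as GCGGGAAA), and TGATGNAA, an element bound by ATF4, in ASNS and in CHAC1 (on the opposite strand).
PLK1 (chr16:23678739-23678888, + strand): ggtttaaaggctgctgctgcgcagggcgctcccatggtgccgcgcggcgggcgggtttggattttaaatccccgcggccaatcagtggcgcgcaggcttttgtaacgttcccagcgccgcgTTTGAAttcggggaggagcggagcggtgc
MKI67 (chr10:128126424-128126573, - strand): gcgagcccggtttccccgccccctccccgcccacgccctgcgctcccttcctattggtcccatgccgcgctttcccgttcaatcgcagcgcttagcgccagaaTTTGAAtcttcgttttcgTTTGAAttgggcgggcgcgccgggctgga
MCM6 (chr2:135876444-135876693, - strand): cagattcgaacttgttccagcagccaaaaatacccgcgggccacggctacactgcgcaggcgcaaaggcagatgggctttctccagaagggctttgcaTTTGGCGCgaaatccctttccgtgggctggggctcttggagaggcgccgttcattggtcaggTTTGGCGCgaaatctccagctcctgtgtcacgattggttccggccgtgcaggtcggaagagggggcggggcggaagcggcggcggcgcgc
PCNA (chr20:5126623-5126772, - strand): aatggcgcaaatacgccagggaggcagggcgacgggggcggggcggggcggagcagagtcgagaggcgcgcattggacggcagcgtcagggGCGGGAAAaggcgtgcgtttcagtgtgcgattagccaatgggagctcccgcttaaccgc
ASNS (chr7:97872409-97872558, - strand): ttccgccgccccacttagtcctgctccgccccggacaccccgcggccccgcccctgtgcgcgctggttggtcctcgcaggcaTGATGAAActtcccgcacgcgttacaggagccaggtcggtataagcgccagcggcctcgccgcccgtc
CHAC1 (chr15:40953221-40953470, + strand): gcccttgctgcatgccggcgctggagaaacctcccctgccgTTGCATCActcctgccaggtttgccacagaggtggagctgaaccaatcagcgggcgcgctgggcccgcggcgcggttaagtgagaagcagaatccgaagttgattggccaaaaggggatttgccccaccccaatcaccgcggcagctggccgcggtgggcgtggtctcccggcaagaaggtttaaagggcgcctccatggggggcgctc

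Within the 250 bases before the start, searched on both strands, TTTGAA was present in 16 of 30 mitosis genes with a promoter entry, 1 of 30 replication genes and 13.6% of 27305 promoters. One or the other E2F form, which differ in letters and were counted once per promoter, was present in 11 of 30 replication genes and 1.96% of all promoters. TGATGNAA was present in 4 of 36 ATF4 list genes (ASNS and CHAC1 among them) and 3.19% of all. The sterol element letters TCACNCCAC were present in 1 of 20 cholesterol genes and 0.875% of all. These are matches of letters in 1 window, not measured binding sites.

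In the 6-library test 10 genes passed, 0.081% of those tested, of which 9 were higher (0.0729%) and 1 lower (0.0081%) at 12 weeks. DHRS2, a short-chain dehydrogenase/reductase, stood at 742, 518 and 513 at 6 weeks and 6974, 9581 and 4719 at 12 weeks, a difference of 3.55 ± 0.38 (SE) (adjusted p = 0.0293). Its 2 groups did not overlap. CLDN1, the tight junction protein claudin-1, stood at 82.4, 86.6 and 125 at 6 weeks and 847, 563 and 1077 at 12 weeks, a difference of 3.04 ± 0.37 (SE) (adjusted p = 0.0364). Here, too, every 12-week library was above every 6-week library.

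Several of the passing genes had low counts at 6 weeks. KLHDC7B, a kelch domain protein, stood at 1.62, 1.1 and 3.03 at 6 weeks and 76.8, 202 and 67.3 at 12 weeks. IL20RB, a receptor chain for interleukin-20 family cytokines, stood at 11.3, 21.9 and 11.1 at 6 weeks and 194, 165 and 175 at 12 weeks. In both the groups did not overlap, and KLHDC7B rested on 1 to 3 reads per library at 6 weeks. SH3BGR, an SH3-binding glutamate-rich protein, stood at 17.8, 11 and 16.2 at 6 weeks and 178, 179.7 and 181 at 12 weeks, with the 12-week libraries close together. BEX2, a small protein of the brain-expressed X-linked family, stood at 8.08, 5.48 and 15.2 at 6 weeks and 173, 141 and 194 at 12 weeks. The differences of these 4 genes were 5.19 for KLHDC7B, 4.10 for BEX2, 3.57 for IL20RB and 3.52 for SH3BGR, with adjusted p = 0.0293. DRD5 and SPRR2A, which also passed, share sequence with close copies, so the counting could have split their reads, and they are uncertain. DRD5, a dopamine receptor with pseudogene copies, stood at 1.62, 1.1 and 0 at 6 weeks and 64.6, 137 and 111 at 12 weeks. SPRR2A, a cornified envelope precursor from a cluster of near-identical genes, stood at 1.62, 4.38 and 2.02 at 6 weeks and 119, 278 and 66.4 at 12 weeks. Both were again near 0 in every library at 6 weeks and clearly present in every library at 12 weeks. DHRS2 lies on chromosome 14 and BEX2 on the X chromosome. KLHDC7B lies on chromosome 22 and CLDN1 on chromosome 3.

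**Figure D2:**
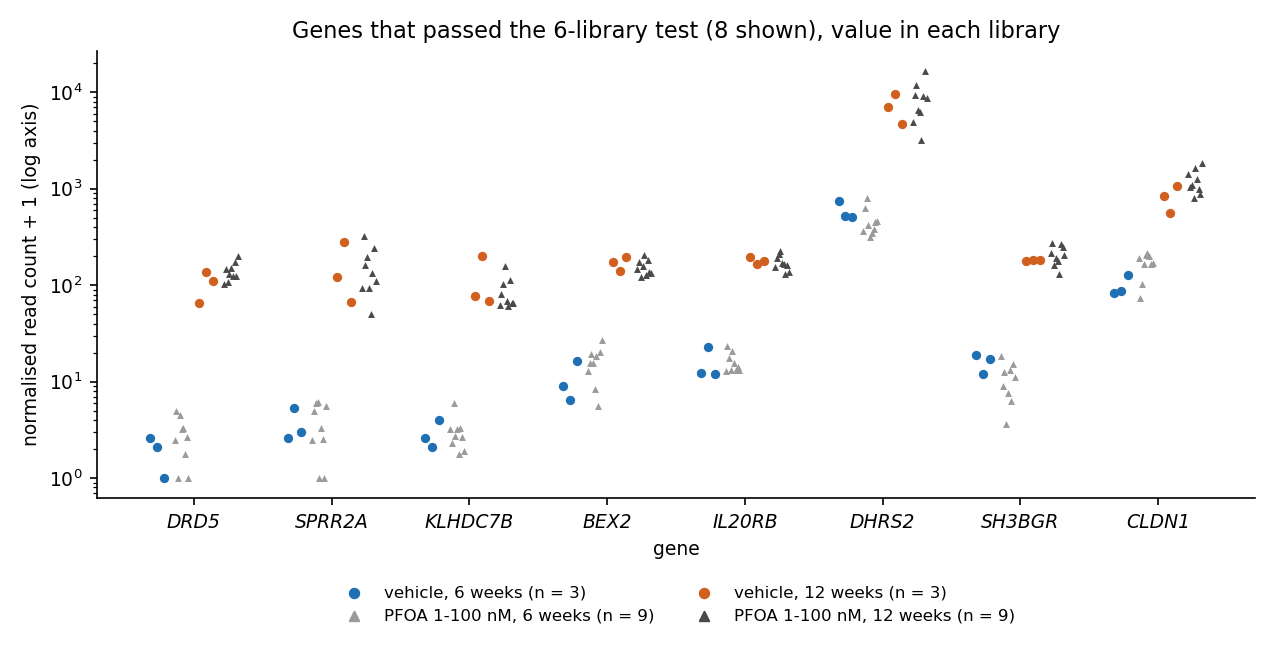
Normalised read count plus 1 (log axis) of 8 of the 10 genes that passed the 6-library test, with each point a library: vehicle as circles (n = 3 per time) and PFOA-dosed libraries as triangles (n = 9 per time). For each gene the 6-week and 12-week libraries do not overlap, in vehicle or in dosed flasks.

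The count of 10 depended on the libraries used. Leaving out replicate 2 or 3 at 6 weeks, or replicate 1 or 3 at 12 weeks, left 0 passing genes each (limma, 544 to 702 genes at an unadjusted p under 0.05), while leaving out replicate 1 at 6 weeks gave 12 and replicate 2 at 12 weeks 108. Without the 2 libraries that stood apart, a setting chosen after seeing the data, 285 genes passed as higher and 312 as lower, with all 10 among them. With the spread taken from 24 libraries the same vehicle contrast had 445 passing genes (3.6%), 228 of them higher (1.85%) and 217 lower (1.76%), again with all 10, and leaving out 1 vehicle library at a time gave 272 to 412 in either direction. On values alone, the groups did not overlap for 797 genes in the higher direction (6.46%) and 801 in the lower (6.49%). The median difference over all tested genes was 0.0042. These shares over all tested genes are the background for the counts of list members below.

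DNA replication and mitosis genes were lower at 12 weeks. All 35 replication genes of a list of 35, and all 35 of 35 mitosis genes, had a lower mean at 12 weeks. The median difference was -1.37 for replication and -1.27 for mitosis, against 0.0042 for all genes. In the 24-library test 17 replication and 16 mitosis genes passed as lower and none as higher. In the 6-library test none of the 70 passed. The groups did not overlap for 27 and 22 of them, all lower. Without the 2 libraries that stood apart the medians were -1.46 and -1.23.

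RRM2, the small subunit of ribonucleotide reductase, which makes deoxynucleotides, stood at 5182, 5873 and 4306 at 6 weeks and 1124, 959 and 972 at 12 weeks, a difference of -2.32 ± 0.31 (SE) (adjusted p = 0.0541 in the 6-library and 2.58e-06 in the 24-library test). The groups did not overlap, and the libraries that stood apart lay with the others of their time. ORC1, which marks replication origins, stood at 158, 175 and 149.6 at 6 weeks and 22.3, 48.2 and 32.3 at 12 weeks. MCM4 and MCM5 are subunits of the replicative helicase. MCM4 stood at 1207, 1619 and 1024 at 6 weeks and 315, 376 and 326 at 12 weeks, a difference of -1.89 ± 0.32 (SE) (24-library adjusted p = 9.41e-06), and MCM5 at 4136, 2207 and 1513 at 6 weeks and 439, 1067 and 342 at 12 weeks. E2F1, a factor that drives this programme, stood at 2863, 1314 and 1335 at 6 weeks and 264, 726 and 239.8 at 12 weeks, and the values in the libraries that stood apart were the highest of their groups. MCM6, whose promoter is shown above, stood at 748, 1491 and 974 at 6 weeks and 507, 415 and 678 at 12 weeks, and its difference of -0.98 ± 0.38 (SE) did not pass either test (24-library adjusted p = 0.0917). PCNA, the sliding clamp, stood at 2087, 3461 and 3269 at 6 weeks and 2296, 1308 and 3189 at 12 weeks, with overlapping groups. The smallest difference of the list was that of GINS3, at -0.11. FAM111B, a serine protease gene outside the list, stood at 335, 539 and 206 at 6 weeks and 44.5, 46.3 and 40.6 at 12 weeks (adjusted p = 0.0612 and 1.86e-05).

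Among mitosis genes, MKI67, which encodes the proliferation marker Ki-67, stood at 2732, 2557 and 2407 at 6 weeks and 578, 739 and 545 at 12 weeks, a difference of -2.06 ± 0.30 (SE) (adjusted p = 0.0656 and 1.38e-05). The groups did not overlap. KIF20A, a kinesin of cytokinesis, stood at 1293, 1853 and 1799.7 at 6 weeks and 359, 256 and 451 at 12 weeks, a difference of -2.23 ± 0.35 (SE) (24-library adjusted p = 0.000846). CCNB1, cyclin B1, stood at 3086, 3740.1 and 2663 at 6 weeks and 1103, 813 and 857 at 12 weeks (24-library adjusted p = 0.000144). Both had every 12-week library below every 6-week library. PLK1, a mitotic kinase, stood at 4798, 2653 and 2822 at 6 weeks and 899.7, 1819 and 873 at 12 weeks, a difference of -1.55 ± 0.42 (SE) (24-library adjusted p = 0.0146). AURKB, the kinase of the chromosomal passenger complex, stood at 3356, 1732 and 1835 at 6 weeks and 538, 1122 and 416 at 12 weeks. CDK1, the mitotic cyclin-dependent kinase, stood at 571, 1217 and 1014 at 6 weeks and 619, 279.7 and 739 at 12 weeks, with overlapping groups and a 24-library adjusted p = 0.412. The smallest difference was that of HMMR, at -0.51.

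Listed histone genes had higher means at 12 weeks, and few passed. Of 20 listed histone genes, 10 were measured at a mean of 10 or more, and all 10 had a higher mean at 12 weeks, with a median difference of 1.01 (1.02 without the 2 libraries that stood apart). In the 24-library test 2 passed, both higher, and in the 6-library test none did. The groups did not overlap for 5 of the 10. H2BC5 stood at 79.2, 94.2 and 102 at 6 weeks and 243, 229.7 and 274 at 12 weeks, a difference of 1.43 ± 0.31 (SE) (24-library adjusted p = 0.00094), and H4C15 at 322, 262 and 270.0 at 6 weeks and 660.3, 661 and 489.7 at 12 weeks. Transcripts of replication-dependent histone genes mostly lack a poly(A) tail, so an mRNA library holds few of them.

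ATF4 target genes were higher at 12 weeks. Of 42 listed genes 39 were tested, and 38 had a higher mean at 12 weeks, with a median difference of 1.35. The exception was ATF5, at -0.17. In the 24-library test 15 passed, all higher, and in the 6-library test none did. The groups did not overlap for 23 members, all higher. Without the 2 libraries that stood apart the median was 1.31. The ATF4 transcript itself, whose product is controlled mainly at translation, stood at 13533, 9009.9 and 9524 at 6 weeks and 11486, 26517 and 15933 at 12 weeks with overlapping groups.

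NUPR1, a stress-induced chromatin protein, had the largest difference of the list. NUPR1 stood at 40.4, 34 and 18.2 at 6 weeks and 539, 974 and 202 at 12 weeks, a difference of 3.97 ± 0.60 (SE) (24-library adjusted p = 0.00406). TRIB3, a pseudokinase induced by ATF4, stood at 3163, 2809.7 and 2496 at 6 weeks and 13626, 18477 and 11772 at 12 weeks, a difference of 2.35 ± 0.35 (SE) (adjusted p = 0.0656 and 1.86e-05). Both had every 12-week library above every 6-week library. JDP2, a bZIP repressor, stood at 16.2, 14.2 and 7.08 at 6 weeks and 116, 174 and 107 at 12 weeks. DDIT4, an inhibitor of mTORC1 also known as REDD1, stood at 362, 298 and 347 at 6 weeks and 1082, 2034 and 1565 at 12 weeks. SLC1A4, a transporter of neutral amino acids, stood at 183, 214 and 113 at 6 weeks and 611, 837 and 574 at 12 weeks. In these genes, too, the groups did not overlap (24-library adjusted p = 0.000152, 0.000191 and 9.58e-05). ASNS, asparagine synthetase, stood at 3576, 5994 and 2272 at 6 weeks and 15385, 11607 and 11081 at 12 weeks, a difference of 1.78 ± 0.44 (SE) (24-library adjusted p = 0.0143). CHAC1, which degrades glutathione, stood at 635, 640.0 and 175 at 6 weeks and 1832, 5443 and 1111 at 12 weeks, a difference of 2.42 ± 0.70 (SE), and did not pass (24-library adjusted p = 0.0619). ALDH1L2, a mitochondrial folate enzyme, stood at 55, 147 and 99.1 at 6 weeks and 577, 228 and 425 at 12 weeks.

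Genes of cholesterol synthesis and uptake were lower. All 25 tested of 27 had a lower mean at 12 weeks, with a median difference of -1.11 (-0.96 without the 2 libraries that stood apart). In the 24-library test 7 genes passed, all lower. For 13 the groups did not overlap. ACAT2, which makes acetoacetyl-CoA for the pathway, stood at 511, 572 and 459 at 6 weeks and 145, 107 and 93.1 at 12 weeks, a difference of -2.17 ± 0.32 (SE) (adjusted p = 0.0656 and 0.000109). DHCR7, which reduces 7-dehydrocholesterol to cholesterol, stood at 3336, 1764 and 2045 at 6 weeks and 563, 1061 and 554 at 12 weeks. FDFT1, squalene synthase, stood at 8148, 4876 and 5091 at 6 weeks and 1975, 2759.7 and 1649 at 12 weeks. For these 3 genes every 12-week library was below every 6-week library. INSIG1, which retains the SREBP complex when sterols are plentiful and is itself an SREBP target, stood at 1007, 1198 and 1370.0 at 6 weeks and 399.7, 269 and 511 at 12 weeks (24-library adjusted p = 0.00704). IDI1, an isoprenoid isomerase, stood at 242, 309 and 438 at 6 weeks and 130.3, 72.2 and 178 at 12 weeks. SQLE, squalene epoxidase, had overlapping groups, at 93.8, 329 and 318 at 6 weeks and 256, 57.4 and 349.5 at 12 weeks.

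Inflammatory and secreted factor genes were higher in part. Of 28 tested genes of endothelial inflammation and NF-kB, 23 had a higher mean at 12 weeks (median difference 0.71), and 4 passed the 24-library test, all higher. IL6 stood at 16.2, 43.8 and 57.6 at 6 weeks and 265, 85.2 and 309.9 at 12 weeks, and IL1A, the alarmin interleukin-1 alpha, at 213, 351 and 412 at 6 weeks and 1312, 724 and 1280.0 at 12 weeks. The others were IL11 and LIF, cytokines that signal through gp130, with differences of 1.50 and 1.26. Of 23 genes of the senescence secretory list 5 passed the 24-library test, all higher, with a list median of 0.43, or 0.67 without the 2 libraries that stood apart. IGFBP3, a binding protein for insulin-like growth factors, stood at 43.6, 25.2 and 57.6 at 6 weeks and 230.5, 152 and 359 at 12 weeks, a difference of 2.51 ± 0.46 (SE) (24-library adjusted p = 0.0012). SERPINE2, a protease inhibitor, stood at 11.3, 29.6 and 35.4 at 6 weeks and 168, 115 and 382 at 12 weeks. In both the groups did not overlap. MMP3, a matrix metalloprotease, stood at 6.47, 9.86 and 11.1 at 6 weeks and 37.9, 44.5 and 55.3 at 12 weeks. The p53 target and cell cycle inhibitor CDKN1A stood at 17957, 5633 and 8528 at 6 weeks and 6168, 20681 and 6653 at 12 weeks, with overlapping groups and a difference of -0.0079. In the 24-library test 2 of 27 p53 targets, SESN2 and BTG2, passed as higher, beside 1.85% of all tested genes. BTG2 is also in the immediate early list below and is counted there again.

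Interferon response genes were mixed. Of 37 tested genes 24 had a higher mean, with a median difference of 0.40 (0.20 without replicate 2 and 0.67 without replicate 3 at 12 weeks). The 24-library test passed 5 of the 37 as higher and 1 as lower, beside 1.85% and 1.76% of all tested genes. In the average over doses 17 passed as higher and 3 as lower, beside 10.0% and 9.72% of all tested genes. MX2, an antiviral GTPase, stood at 4.85, 1.1 and 2.02 at 6 weeks and 17.8, 33.3 and 23.1 at 12 weeks. IFIT3, an antiviral repeat protein, stood at 165, 163 and 171 at 6 weeks and 309.6, 350.1 and 385 at 12 weeks, and IRF9, the DNA-binding part of the interferon-activated complex ISGF3, at 299, 171 and 329.6 at 6 weeks and 447, 602 and 689 at 12 weeks. These were separated between times, in the higher direction. USP18, the protease that removes ISG15 and damps interferon signalling, went the opposite way, at 294, 235 and 303 at 6 weeks and 56.8, 88.9 and 94.1 at 12 weeks, a difference of -1.81 ± 0.34 (SE) (24-library adjusted p = 0.000476). ISG15 itself overlapped between groups, at 5362, 2349 and 1808 at 6 weeks and 5191, 11448 and 1903 at 12 weeks. Of 26 immediate early genes 4 passed as higher in the 24-library test, led by ATF3, a stress-induced bZIP factor, at 221, 396 and 490.4 at 6 weeks and 1345, 1184 and 1824 at 12 weeks.

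Endothelial identity genes showed no common direction. Of 29 tested, 16 had a higher and 13 a lower mean, with a median difference of 0.085 (-0.055 with library quality weights and -0.0020 without replicate 2 at 6 weeks). The 24-library test passed 1 of the 29, CD34, as lower, beside 1.76% of all tested genes. CD34, a surface sialomucin, stood at 297, 199 and 356 at 6 weeks and 94.6, 120.4 and 88.5 at 12 weeks. ENG, endoglin, stood at 42877, 18042 and 17307 at 6 weeks and 17406, 38501 and 11177 at 12 weeks, with overlapping groups. ACTA2, smooth muscle actin, which is also induced in other cells, stood at 485, 352 and 413 at 6 weeks and 1052, 1428 and 925 at 12 weeks (24-library adjusted p = 0.0119), without overlap. It was the 1 passing gene of 5 tested from a longer smooth muscle and pericyte list. Of these 5, 4 had a higher mean and 1, SMTN, a lower mean, with a difference of -1.32. The list median was 0.14 (-0.030 without replicate 3 at 12 weeks), and -0.19 in the average over doses. Outside the endothelial list, FABP4, a fatty acid carrier of microvascular endothelium and fat, stood at 90.5, 139 and 115 at 6 weeks and 36.7, 24.1 and 24 at 12 weeks, a difference of -1.99 ± 0.38 (SE) (24-library adjusted p = 0.000314). It was the 1 passing gene of 21 tested from a list of PPAR targets and fatty acid oxidation. Of these 21, 13 had a higher and 8 a lower mean, with a median of 0.052 (-0.066 without replicate 2 at 12 weeks). VEGFA, the growth factor for endothelial cells, stood at 831, 751 and 777 at 6 weeks and 1613, 1848 and 2479.7 at 12 weeks, and the glucose transporter gene SLC2A1 at 619, 414 and 584 at 6 weeks and 1264, 2091 and 1478 at 12 weeks. Both were higher in every 12-week library and passed the 24-library test (adjusted p = 0.0108 and 0.00063). They belong to the hypoxia and glycolysis list, of which 36 genes were tested, 17 with a higher and 19 with a lower mean, and a median of -0.043 (0.020 with quantile normalisation). In the 24-library test 4 of the 36 passed as higher, the others being the glucose transporter gene SLC2A3 and DDIT4, and none as lower, beside 1.85% and 1.76% of all tested genes. The groups did not overlap for 6 of the 36 in the higher and 1 in the lower direction, beside 6.46% and 6.49% of all tested genes.

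Of 23 heat shock genes 18 had a lower mean (median -0.63, or -0.47 without the 2 libraries that stood apart). The 24-library test passed HSPA8 as lower and HSPA9 and HSPB8 as higher, beside 1.76% and 1.85% of all tested genes. HSPA8, the constitutive cytosolic HSP70, stood at 28244, 29780.2 and 25654 at 6 weeks and 10703, 12158 and 14759 at 12 weeks. HSPA9, its mitochondrial relative, stood at 4237, 6957 and 4659 at 6 weeks and 14576, 9446 and 12942 at 12 weeks. Both showed separate groups, in opposite directions. HSPA5, the HSP70 of the endoplasmic reticulum, stood at 5221, 9848 and 8951 at 6 weeks and 23859, 11924 and 31278 at 12 weeks and did not pass (24-library adjusted p = 0.0679). Nuclear genes of the respiratory chain had a median of -0.33, with 57 of 64 lower, 16 of them without overlap, and none passed either test. Leaving out 1 library moved this median to -0.55 (replicate 2 at 12 weeks), -0.52 (replicate 3 at 6 weeks) or -0.14 (replicate 3 at 12 weeks), and library quality weights to -0.10. In the dosed flasks the median of the same list was -0.32 at 1 nM, 0.061 at 10 nM and -0.00013 at 100 nM. In the average over doses 7 of 64 members passed as lower, a share near the 9.72% of all tested genes that did so. Mitochondrially encoded transcripts took 9.24% to 11.4% of reads at 6 weeks and 6.78% to 9.17% at 12 weeks. The exact permutation test gave a two-sided p = 0.1 (adjusted p = 0.3 over 6 library measures). With 3 against 3 libraries 0.1 is the smallest p this test can give, so no difference could have passed. Ranges of 5.58% to 11.2% and 5.51% to 10.3% in the dosed flasks overlapped. Ribosomal protein genes had a median of 0.079 with no stable sign (-0.19 without replicate 2 at 12 weeks, -0.078 and -0.010 without replicate 3 or 2 at 6 weeks, 0.33 without replicate 3 at 12 weeks), and none of 79 passed. Of 30 nucleotide and folate genes 13 had a higher and 17 a lower mean, with a median of -0.11 (0.027 in the average over doses). In the 24-library test 2 of the 30 passed as lower and none as higher, beside 1.76% and 1.85% of all tested genes. SHMT1, the cytosolic serine hydroxymethyltransferase, was the largest difference among the 30, at 307, 258 and 289 at 6 weeks and 88, 107 and 78.4 at 12 weeks (24-library adjusted p = 0.000144).

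The dosed flasks had the same time difference measured in 18 other libraries. In these, 348 genes were higher and 240 lower at 1 nM (4.76% passing in either direction), 312 and 285 at 10 nM (4.84%), and 290 and 283 at 100 nM (4.64%). For the average over doses 2435 passed (19.7%), of which 1235 were higher (10.0%) and 1200 lower (9.72%). Of the 445 genes that passed in vehicle in the 24-library test, all 445 had the same sign in the average over doses and at each dose, and 443 passed there. Across the 12345 genes the vehicle and dosed differences correlated with Pearson r 0.86 and Spearman rho 0.80, given as a description. The vehicle and dosed libraries share no sample but were collected at the same 2 times. Both tests also took each gene's spread from the same 24 libraries, so passing in one is not independent of passing in the other. With the spread from the 18 dosed libraries alone, 2567 genes passed in the average over doses.

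DHRS2 in the dosed libraries ran from 316 to 804 (median 415) at 6 weeks and from 3159 to 16553 (median 8607) at 12 weeks. TRIB3 ran from 1819.8 to 3334 (median 2302) at 6 weeks and from 9628 to 18904 (median 13248) at 12 weeks. MKI67 ran from 2154 to 3507 (median 2859.5) at 6 weeks and from 486 to 799 (median 537) at 12 weeks. In all 3 genes the 9 libraries of one time lay entirely beyond the 9 of the other. RRM2 ran from 4022 to 6222 (median 4579) at 6 weeks and from 652 to 1633 (median 1050.0) at 12 weeks. The replication list median was -1.20, -1.37 and -1.16 at 1, 10 and 100 nM, the mitosis median -1.22, -1.65 and -1.11, the cholesterol median -1.10, -1.38 and -1.30, and the ATF4 median 1.53, 1.12 and 1.44. All kept the sign of the vehicle value. In the average over doses 29 of 35 replication, 32 of 35 mitosis and 20 of 25 cholesterol genes passed as lower, and 35 of 39 ATF4 and 9 of 10 histone genes as higher. No member of these 5 lists passed in the opposite direction.

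For these 4 lists the score of a library, the median over members of the log2 level relative to the mean of 24 libraries, separated the times in every flask. In vehicle libraries the replication score was 0.40 to 0.99 at 6 weeks and -1.01 to -0.73 at 12 weeks. The mitosis score was 0.19 to 0.87 and -1.44 to -0.47, and the lowest 6-week library of all was a dosed one at -0.10, above the highest 12-week library, also dosed, at -0.18. The ATF4 score was -0.86 to -0.42 and 0.61 to 1.19.

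No gene passed the test of the vehicle time difference minus the average dosed time difference (limma on 24 libraries, 30 genes at an unadjusted p under 0.05; edgeR also gave 0). The median SE of that difference was 0.48 on the log2 scale, so differences of moderate size between vehicle and dosed flasks were not detectable at this number of libraries. For DHRS2 the vehicle difference minus the dosed difference was -0.57 ± 0.44 (SE), for TRIB3 -0.049 ± 0.30 (SE) and for MKI67 0.22 ± 0.25 (SE). For CHAC1 it was -1.20 ± 0.81 (SE), beside a dosed difference of 3.63.

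**Figure D3:**
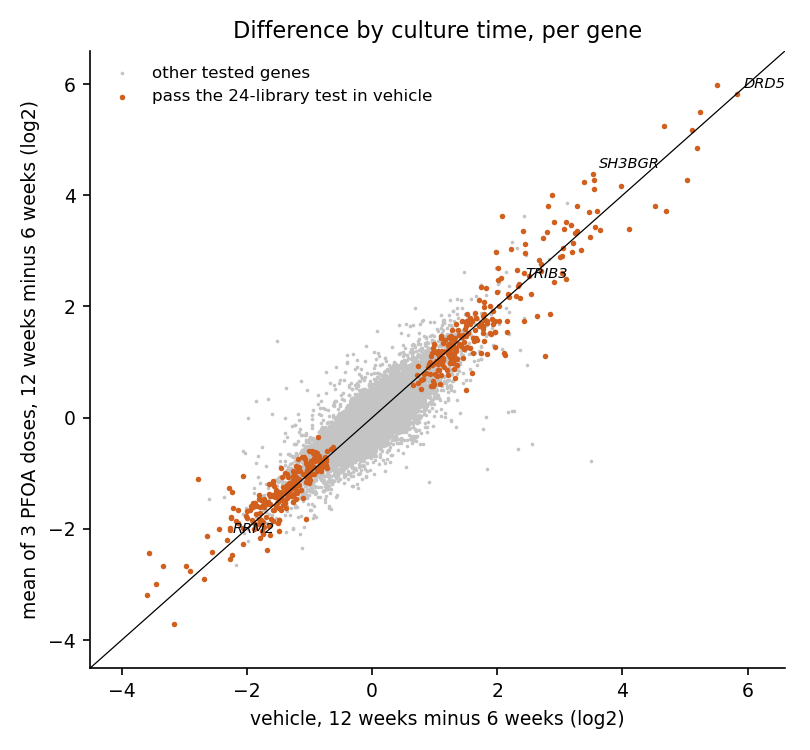
Difference between 12 and 6 weeks (log2) for each of 12345 genes in vehicle libraries (horizontal axis) and averaged over 3 PFOA doses (vertical axis), with genes that passed the 24-library test in vehicle in orange and the line of equal values in black. The orange points lie along the line, in the lower left and the upper right.

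Vehicle libraries of the 48 h exposure come from cells lysed in a dish, so their levels are given beside the others without a test. DHRS2 was at 285 ± 55.9 (SD, n = 3) there and TRIB3 at 2442 ± 30 (SD, n = 3). MKI67 was at 2146 ± 332 (SD, n = 3) and CLDN1 at 113 ± 11.5 (SD, n = 3). All 4 were nearer to the 6-week than to the 12-week level, which did not hold for every gene. RRM2 was at 2795 ± 157 (SD, n = 3), between its means of 5120 at 6 weeks and 1018 at 12 weeks. FOSB, an immediate early gene, was at 54.0 ± 14.3 (SD, n = 3), below its means of 720 at 6 weeks and 1846 at 12 weeks.

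Chromosome medians of the time difference were close to 0, while single libraries deviated more. On chromosome 19 the median deviation from the 6-library mean was 0.73 and 0.77 in the 2 libraries that stood apart. In the others it was -0.56 to -0.16. The median difference of the genes of a chromosome ran from -0.14 on chromosome 19 to 0.17 on chromosome 13 over the 22 autosomes and the X chromosome, and in the dosed flasks all lay within -0.076 to 0.07.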

How the data were processed

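Messenger RNA was measured in 24 libraries of EA.hy926 cells at 6 and 12 weeks, 6 of them from vehicle flasks. The signal that the authors deposited for each gene is a read count over the size factor of its library. The submitters' processing notes name HISAT, Bowtie2, DESeq2 and build GRCh38.p14 and no version. Which tool counted reads, and whether it used strand, is not given in the sources used here. Values within a library were whole multiples of 1 step, which returned whole reads (100% within 0.01). Both times were deposited in tables of their own. The size factors in them matched a joint estimate from 36 libraries (SD of log2 ratios 0.00384 and 0.00437) better than an estimate from 1 table (0.00755 and 0.0106). Median offsets to the joint estimate were -0.026 and -0.027, so the tables were joined on 1 scale, and every difference between times rests on this.

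Genes whose mean reached 10 were fitted with limma 3.58.1 (R 4.3.3, two-sided) on log2(signal + 1), with a prior that follows the level. The fit was tested on simulated counts in which genes varied independently. That test does not cover a deviation shared by many genes, as in the 2 libraries that stood apart. The pseudocount understates changes of low genes. P-values measure only the spread between libraries, which may be in part technical. The 24-library fit had 1 mean per group and gave the dosed contrasts and the vehicle minus dosed difference. Single library measures used exact permutation tests. Genes were named if they passed with a mean of at least 50 and without overlap, up to 15 each way. Since 1 lower gene passed, the 5 lower genes with the smallest p were taken (among them RRM2, FAM111B, ACAT2 and MKI67). Up to 6 members of a list were named, starting from the largest differences among those that passed the 6-library or 24-library test. Further genes, such as those with a promoter shown, CDK1, ATF4, SQLE and ISG15, and the smallest difference of a list, were added after their values were seen. Some genes that met these rules are not reported here. The 33 lists were described by counts and medians, with no set test. Some genes are in more than 1 list, so the counts of different lists are not independent. Members, lists and motifs were chosen with earlier results of these data known. Transcript GC content and length (GENCODE release 29) were known for 96.5% of tested genes, and 99.8% of symbols matched the RefSeq annotation. Alternatives were pseudocounts of 0.1 and 10, other filters and scalings, edgeR 4.0.16 or DESeq2 1.42.0 with the recovered reads, library quality weights, a replicate block, a GC and length correction, and each library left out.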

Additional observations from a re-analysis of the deposited data

How the results depend on the processing

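The 10 genes that passed the 6-library test (9 higher, 1 lower) kept their direction under all alternatives run, but their number moved. It was 21 with no filter on low values (19 higher, 2 lower), 6 with edgeR (5 higher), 227 with DESeq2 (124 and 103), 494 with a correction for GC content and length (238 and 256), 1425 with library quality weights (733 and 692), 445 with the spread of 24 libraries (228 and 217) and 2196 with the first within-group principal component as a covariate (1056 and 1140), which by construction removes most of the spread. It was 0 with a mean of at least 50 (limma, 707 genes at an unadjusted p under 0.05). Leaving out 1 library gave 0 to 108 in either direction, 0 to 56 higher and 0 to 52 lower, and leaving out both libraries that stood apart, a setting added after seeing the data, gave 597 (285 and 312). The other alternatives stayed within 1.5 times. Whether same-numbered libraries are linked is not known. Their deviations from the group means correlated at -0.65, -0.77 and 0.73 for replicates 1, 2 and 3. Replicate 3 correlated best with its own number, and replicate 1 at 6 weeks with replicate 2 at 12 weeks, the 2 libraries that stood apart, so the numbers were not taken as pairs. With the replicate block 0 genes passed (510 at an unadjusted p under 0.05; 0 higher and 0 lower), and with the block and the GC correction 9 did, 4 of them among the 10. Added after seeing the data, the ribosomal protein read share as a covariate in 24 libraries raised the passing genes to 1827 in vehicle, 3199, 1508 and 1506 at 1, 10 and 100 nM and 5076 on average over doses; leaving out 1 vehicle library gave 291, 275 and 272 without replicate 1, 2 or 3 at 6 weeks and 283, 412 and 286 without replicate 1, 2 or 3 at 12 weeks in the vehicle contrast. The cause of these shifts was not tested. The list medians ran from -1.51 to -1.20 for replication, -1.42 to -0.996 for mitosis, -1.16 to -0.96 for cholesterol, 1.23 to 1.50 for ATF4 genes and 0.90 to 1.12 for histones over all alternatives. The median of NRF2 and oxidative stress genes, 0.17, turned to -0.062 without replicate 2 at 12 weeks and was 0.18 without replicate 1 at 6 weeks. The medians of endothelial identity, ribosomal protein, hypoxia, PPAR target and smooth muscle genes also turned sign under some alternatives, as given beside them.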

Other observations

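Genes that were all but silent at 6 weeks and present at 12 weeks were sought with a rule set after seeing the data: under 5 normalised reads in every vehicle library at 6 weeks and at least 20 in every one at 12 weeks. It found 7 genes, and none in the opposite direction. Besides KLHDC7B, DRD5 and SPRR2A these were ALOX5AP, SPRR2D, VIP and INHBE. ALOX5AP, the protein that presents arachidonic acid to 5-lipoxygenase, stood at 0, 3.29 and 0 at 6 weeks and 72.4, 55.6 and 41.5 at 12 weeks. VIP, the vasoactive intestinal peptide, stood at 0, 2.19 and 0 at 6 weeks and 45.7, 27.8 and 40.6 at 12 weeks. INHBE, the inhibin beta E subunit, stood at 0, 1.1 and 0 at 6 weeks and 23.4, 44.5 and 29.5 at 12 weeks. All 3 rested on 0 to 3 reads per library at 6 weeks and 15 to 65 at 12 weeks, and in the 9 dosed libraries their medians were 0.737, 1.53 and 0 at 6 weeks and 58.2, 35.2 and 43.2 at 12 weeks. SPRR2D stood at 0, 0 and 2.02 at 6 weeks and 64.6, 137 and 30.4 at 12 weeks and shares sequence with SPRR2A and other genes of its cluster, so it is uncertain.

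TXNIP, a glucose-responsive inhibitor of thioredoxin, also singled out after its values were seen, stood at 1038, 402 and 1609 at 6 weeks and 4938, 6294 and 9056 at 12 weeks, a difference of 2.90 ± 0.54 (SE) (24-library adjusted p = 0.000756). Its groups did not overlap, and replicate 2 at 6 weeks was the lowest library. In the 9 dosed libraries TXNIP ran from 729 to 1844 (median 1580.1) at 6 weeks and from 2792 to 12096 (median 6806) at 12 weeks.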
